A study of Homo sapiens with 6 samples.

Results

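The 2'-5'-oligoadenylate synthetase (OAS) genes were examined in the established multiple myeloma line MM.1S (human malignant plasma cells grown in culture) after knockdown of the arginine methyltransferase PRMT1. The group held 4 genes, OAS1, OAS2, OAS3 and OASL, taken by gene symbol from the 58735 genes of the expression table. They were selected on the difference between PRMT1 KD and control measured in these same libraries, so that difference is given for them as a description, without a test. The libraries were 3 controls, transfected with a non-targeting siRNA (si-NC), and 3 PRMT1 KD libraries, transfected with an siRNA against PRMT1. All cells received 100 nM siRNA with a lipid reagent, all carried the same MM.1S background, and RNA was collected at 72 h. Which of the study's 3 PRMT1 siRNAs went into the sequencing is not stated in the sources used here. MM.1S is a single line in culture without marrow cells around it, and no virus or interferon treatment is named for either group. The labels do not say whether the libraries of a group came from separate cultures, so errors and p-values measure the spread between these libraries, which may be technical.

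OAS proteins detect double-stranded RNA, which accumulates during viral infection. Once bound to it, OAS1, OAS2 and OAS3 join ATP into short chains with 2'-5' bonds, known as 2-5A. These chains are a second messenger that sets off the breakdown of viral and cellular RNA and halts translation. OASL is the relative that has lost the synthetase activity and carries ubiquitin-like domains, and it acts on the RIG-I and cGAS sensing pathways. The OAS genes are induced by interferon through the transcription factor ISGF3, which binds interferon-stimulated response elements in their promoters.

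The promoters of OAS1 and OAS3 were available from RefSeq (GRCh38.p14) and were searched for the core of the element through which interferon acts. The core searched was GAAANNGAAA, which is GAAA repeated with 2 bases between the copies, on both strands. A spacing of 1 base, GAAANGAAA, was added after the OAS1 promoter had been read. Both are in capitals in the 250 bases before each RefSeq start, 5' to 3' on the plus strand. The OAS1 window is chr12:112906712-112906961. The OAS3 window is chr12:112938224-112938473.
OAS1: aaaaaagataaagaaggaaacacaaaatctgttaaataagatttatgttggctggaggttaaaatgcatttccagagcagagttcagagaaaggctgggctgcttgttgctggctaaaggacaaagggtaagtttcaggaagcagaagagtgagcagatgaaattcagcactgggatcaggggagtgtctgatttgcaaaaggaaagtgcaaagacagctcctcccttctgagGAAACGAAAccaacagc
OAS3: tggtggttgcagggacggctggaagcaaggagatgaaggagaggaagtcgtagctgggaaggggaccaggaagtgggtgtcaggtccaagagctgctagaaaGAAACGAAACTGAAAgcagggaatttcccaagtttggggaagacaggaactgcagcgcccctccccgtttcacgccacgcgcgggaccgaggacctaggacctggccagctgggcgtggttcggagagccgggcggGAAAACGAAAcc
OAS1 held no copy of the 2-base core and 1 copy of the 1-base form, which began 17 bases before the start. The OAS1 gene of GENCODE begins at 112906777, inside this window, so part of the window lies within a longer annotated transcript. OAS3 held the 2-base core at 143 and at 12 bases before the start, and the 1-base form at 148 bases, which overlaps the first of them. The OAS3 gene of GENCODE likewise begins inside its window, at 112938352. The OAS1 match and the OAS3 core at 12 bases lie past these GENCODE beginnings. The 2-base core was present in 1255 of all 35116 promoters of 300 bases (3.574%), and the 1-base form in 1097 (3.124%). Among 31 promoters of other interferon-induced genes, 20 held the 2-base core (64.52%) and 9 the 1-base form (29.03%). A match is a string of letters and does not show that a factor bound there. OAS2 and OASL are named here without a promoter sequence.

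PRMT1 itself was measured first. Its expression was 61.7, 62.8 and 58.9 FPKM (fragments per kilobase of gene, scaled to library size) in the control libraries and 13.3, 14.0 and 12.5 FPKM in the PRMT1 KD libraries. This was 21.7% of control, and every PRMT1 KD library lay below every control library. The difference in log2(FPKM + 1) was -2.13 (SE 0.0552, adjusted p = 2.77e-05, limma). An exact permutation test, two-sided, returned p = 0.1, and no smaller p can be reached with 3 libraries per group.

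OAS1, the smallest of the synthetases, was the OAS gene with the largest difference. It was measured at 7.36, 6.53 and 7.28 FPKM in the control libraries and at 2.03, 2.02 and 2.23 FPKM in the PRMT1 KD libraries. All 3 PRMT1 KD libraries sat far below all 3 controls, and the libraries of each group lay close together. The means were 7.06 ± 0.457 FPKM (SD, n = 3) and 2.09 ± 0.117 FPKM (SD, n = 3), which puts PRMT1 KD at 29.7% of control. These values rest on 521 to 603 reads per control library and 144 to 168 reads per PRMT1 KD library. The difference in log2(FPKM + 1) was -1.38 (SE 0.0721), and on reads without the added 1 it was -1.75 (SE 0.109, limma voom). In bulk RNA, fewer cells expressing a gene and less RNA per cell cannot be told apart, here and for every gene below.

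OAS2, a synthetase with a duplicated catalytic unit, also had its 2 groups apart. Its expression was 7.91, 7.51 and 7.06 FPKM in the control libraries and 3.35, 2.71 and 2.99 FPKM in the PRMT1 KD libraries. The groups did not overlap, and the highest PRMT1 KD library stayed under every control. Mean expression went from 7.50 ± 0.427 to 3.02 ± 0.326 FPKM (SD, n = 3 each), or 40.2% of control. The reads behind these values were 731 to 821 per control library and 244 to 347 per PRMT1 KD library. The difference in log2(FPKM + 1) was -1.08 (SE 0.0805), and on reads it was -1.31 (SE 0.0960).

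OAS3, the synthetase with the longest coding sequence of the group (3261 bases, against 1242 for OAS1, 2178 for OAS2 and 1542 for OASL), was barely expressed. It was measured at 0.263, 0.150 and 0.161 FPKM in the control libraries and at 0.147, 0.0589 and 0.103 FPKM in the PRMT1 KD libraries. The highest PRMT1 KD library lay just under the lowest control, so the groups touched without overlapping. The reads were 36, 20 and 22 in the controls and 20, 7 and 13 after PRMT1 KD, and 7 reads have an exact 95% Poisson interval of 2.81 to 14.4, for counting error only. Mean expression after PRMT1 KD was 53.8% of control. OAS3 stayed below the filter on low values, a mean of 1 FPKM over the 6 libraries. Its unfiltered difference was -0.11 on the log2(FPKM + 1) scale (SE 0.0574) and -0.89 on reads (SE 0.403), since the added 1 is larger than the expression itself.

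OASL, the member without synthetase activity, had the smallest relative difference of the group. Its expression was 2.46, 2.05 and 1.70 FPKM in the control libraries and 1.60, 1.99 and 1.59 FPKM in the PRMT1 KD libraries. The groups overlapped, since the second PRMT1 KD library lay above the third control. The means were 2.07 ± 0.376 and 1.73 ± 0.231 FPKM (SD, n = 3 each), which is 83.5% of control. The difference in log2(FPKM + 1) was -0.17 (SE 0.124), little more than its own error, and it rested on 85 to 143 reads per library.

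**Figure D1:**
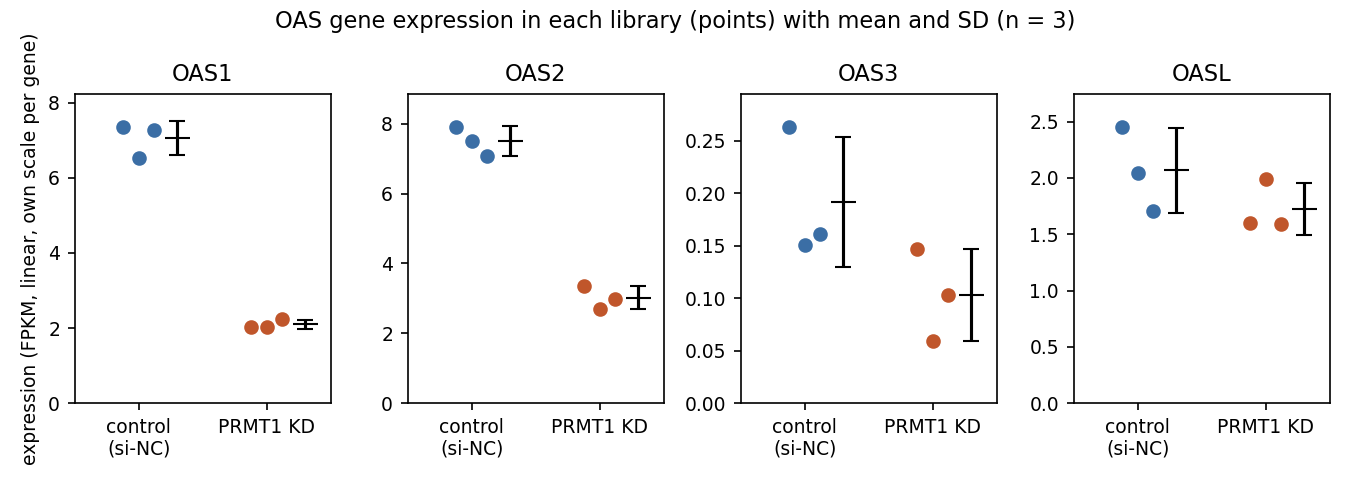
Expression of OAS1, OAS2, OAS3 and OASL in FPKM on linear axes, with a scale of its own for each gene. Points are libraries, blue for control and orange for PRMT1 KD, and the black marks give the mean and SD (n = 3). OAS1 and OAS2 separate widely, OAS3 separates narrowly at 0.263 FPKM or less, and OASL overlaps.

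OAS1, OAS2 and OASL passed the filter and entered the fit over all 13585 tested genes. In that fit 279 genes had an adjusted p under 0.05 (2.05%), of which 134 were lower after PRMT1 KD (0.986% of those tested) and 145 were higher (1.07%). With FPKM rescaled to TPM, a unit that sums to the same total in each library, 133 genes were lower and 222 higher. Since this contrast chose the OAS genes, no p is given for them. At an unadjusted p under 0.05, 9.47% of tested genes were lower and 10.1% higher, and limma voom on reads called 6.82%. Groups without overlap were common among all tested genes, with PRMT1 KD lower for 1668 of them (12.3%) and higher for 1845 (13.6%).

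The order of expression levels within the group, compared per length of gene in FPKM, was the same in both conditions, while the spacing between genes was not. In the control libraries OAS2 and OAS1 were the highest, at the 72.5th and 71.5th percentiles of 19951 protein-coding genes, and their libraries overlapped. OASL followed at the 54.9th percentile and OAS3 at the 39.3rd, neither overlapping with the genes above it. After PRMT1 KD the order was again OAS2, OAS1, OASL and OAS3, with the lowest OAS1 library (2.02 FPKM) only just above the highest OASL library (1.99 FPKM). The ratio of OAS1 to OAS2 within a library was 0.930, 0.869 and 1.03 in the controls and 0.606, 0.747 and 0.746 after PRMT1 KD, without overlap.

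Summed over the 4 genes, OAS expression was 18.0, 16.2 and 16.2 FPKM in the control libraries and 7.14, 6.78 and 6.91 FPKM in the PRMT1 KD libraries. OAS1 made up 40.2% to 44.9% of this sum in the controls and 28.5% to 32.3% after PRMT1 KD. The share of OASL went the other way, from 10.5% to 13.6% in the controls to 22.4% to 29.4% after PRMT1 KD. The shares of OAS2 overlapped, 43.6% to 46.3% in the controls and 39.9% to 47.0% after PRMT1 KD, and OAS3 never exceeded 2.06%.

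**Figure D2:**
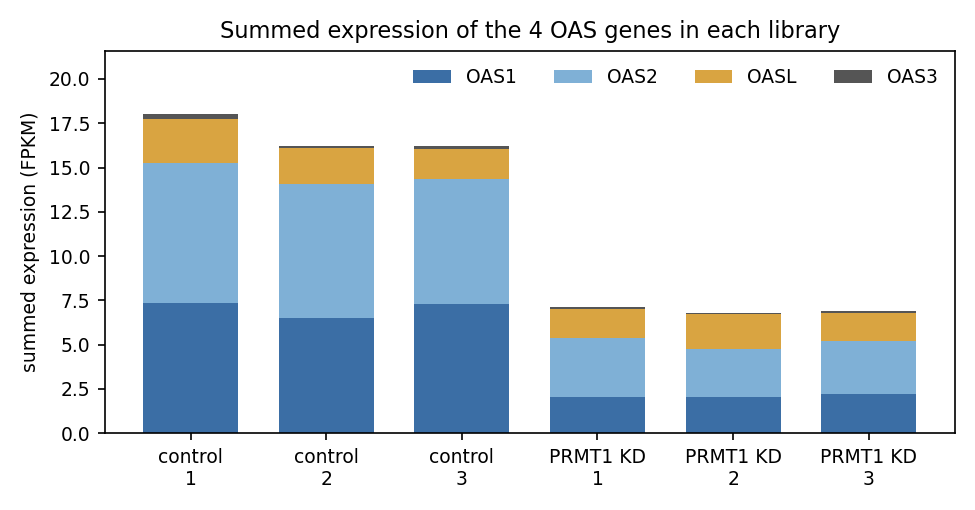
Stacked bars of expression in FPKM for the 4 OAS genes in each of the 6 libraries, on a linear axis from 0. The sum lies between 16.2 and 18.0 FPKM in the controls and between 6.78 and 7.14 FPKM after PRMT1 KD, and the OASL segment takes a larger share of the shorter bars.

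Genes that act downstream of the synthetases, on 2-5A or its signal, were compared next. ABCE1, a ribosome recycling factor that also dampens 2-5A signalling, was measured at 30.1 ± 1.59 and 31.8 ± 2.95 FPKM in control and PRMT1 KD (difference 0.08, SE 0.0744). PDE12, a phosphodiesterase that degrades 2-5A, was at 3.00 ± 0.288 and 3.35 ± 0.0200 FPKM (difference 0.12, SE 0.0787). Neither passed the test (adjusted p = 0.618 and 0.443, limma). The PDE12 groups did not overlap, with PRMT1 KD higher, beside 13.6% of all tested genes. AKAP7, which can also degrade 2-5A, stayed at or under 0.106 FPKM on average and was not tested. Of the 4 genes of this list 2 were tested and 0 were called, beside 2.05% of all tested genes, too few to compare. The median difference of the 2 tested genes was 0.10, beside 0.01 over all tested genes.

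The other sensors of foreign RNA and DNA did not pass the test in either direction, 0 of 10 tested of 12 listed. Unadjusted p-values under 0.05 were found for 2 lower (20%, beside 9.47% of all tested genes) and 1 higher (10%, beside 10.1%) of them. On reads, limma voom called 1, ZBP1, beside 6.82% of all tested genes. ADAR, which edits double-stranded RNA, was the highest, with 134 ± 6.88 and 130 ± 1.94 FPKM (SD, n = 3 each). IFIH1, the sensor MDA5 of long double-stranded RNA, was at 11.9 ± 0.915 and 14.1 ± 0.288 FPKM, a difference of 0.23 (SE 0.0635, adjusted p = 0.120, limma). ZBP1, a sensor of Z-form nucleic acids, was at 1.77 ± 0.256 and 1.21 ± 0.110 FPKM, a difference of -0.32 (SE 0.115, adjusted p = 0.184, limma). TRIM25, a ubiquitin ligase acting on RIG-I, had a difference of -0.15 (SE 0.0412), and CGAS, the sensor of cytosolic DNA, one of 0.11 (SE 0.0496). The median difference of the list was 0.01, the same to this precision as that of all tested genes.

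The interferons themselves were close to undetectable. Of 15 interferon genes, 10 had 0 reads in every library and none was tested. The most reads in one library were 4, for IFNL1 and for IFNL2, and IFNB1 never had more than 3. IFNL2 had the highest mean, 0.303 ± 0.0437 FPKM in control and 0.0594 ± 0.103 FPKM after PRMT1 KD, but it is nearly identical in sequence to IFNL3 and its value is uncertain. With 14439217 to 16465026 reads counted on genes per library, the interferon genes had too few reads to be compared.

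Receptors and signalling proteins of the interferon response also had no call, 0 of 14 tested of 19 listed. Here 3 genes were lower (21.4%, beside 9.47% of all tested genes) and 2 higher (14.3%, beside 10.1%) at an unadjusted p under 0.05. On reads, limma voom called 2, IFNGR2 among them, beside 6.82% of all tested genes. IRF9, the DNA-binding subunit of ISGF3, was at 1.56 ± 0.138 and 1.14 ± 0.0493 FPKM (difference -0.26, SE 0.104, adjusted p = 0.237, limma). All its PRMT1 KD libraries lay below all controls, while the groups overlapped for STAT2, another subunit, at 25.6 ± 1.38 and 24.4 ± 0.660 FPKM. IFNGR2, a chain of the interferon gamma receptor, had a difference of 0.28 (SE 0.0572, adjusted p = 0.0620, limma), and IFNLR1, a chain of the interferon lambda receptor, one of 0.17 (SE 0.0693). The kinases TYK2 and JAK1 were the most abundant of the list, at 37.0 ± 0.530 and 33.1 ± 0.594 FPKM in control and at 38.1 ± 1.86 and 30.3 ± 0.803 FPKM after PRMT1 KD. The median difference of the 14 genes was -0.03.

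Among 35 other interferon-induced genes, 19 were tested and 2 were called, both lower after PRMT1 KD, beside 0.986% of all tested genes called lower. Unadjusted p-values under 0.05 were found for 6 lower (31.6%, beside 9.47%) and 5 higher (26.3%, beside 10.1%). Groups without overlap were found for 8 with PRMT1 KD lower (42.1%, beside 12.3%) and 5 with PRMT1 KD higher (26.3%, beside 13.6%). ISG15, a ubiquitin-like protein conjugated to other proteins, was measured at 21.5, 19.0 and 21.4 FPKM in the control libraries and at 9.40, 11.8 and 11.0 FPKM in the PRMT1 KD libraries. The groups lay far apart, and the difference was -0.88 (SE 0.0900, adjusted p = 0.0144, limma). IFITM1, a membrane protein that blocks viral entry, was at 9.62, 8.38 and 8.57 FPKM in the controls and at 6.62, 5.21 and 6.14 FPKM after PRMT1 KD. Its groups did not overlap either, and the difference was -0.50 (SE 0.0914, adjusted p = 0.0487, limma). Without any 1 of the 6 libraries IFITM1 was no longer called, and ISG15 was lost without the first control or without the third PRMT1 KD library.

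The core elements of these called genes are shown beside those of OAS1 and OAS3, with the 2-base core in capitals and both windows on the plus strand of GRCh38.p14. The ISG15 stretch is chr1:1013369-1013414 and the IFITM1 stretch chr11:313985-314024.
ISG15: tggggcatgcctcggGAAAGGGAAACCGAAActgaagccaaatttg
IFITM1: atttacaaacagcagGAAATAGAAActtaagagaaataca
In ISG15 a pair of cores share their middle GAAA, at 113 and 107 bases before the start. In IFITM1 the core shown began 40 bases before the start, and the 300-base promoter held 2 copies, the other one outside the 250 bases before the start.

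The other interferon-induced genes lay on both sides of 0. PARP14, an ADP-ribosyltransferase, had a difference of 0.30 (SE 0.0697, adjusted p = 0.0853, limma). ISG20, an exonuclease, had a difference of -0.46 (SE 0.111, adjusted p = 0.0915, limma), and IFI27, a mitochondrial protein, one of -0.43 (SE 0.103, adjusted p = 0.0909, limma). On reads, limma voom called PARP14, ISG20 and IFI27 of this list as well as ISG15 and IFITM1, beside 6.82% of all tested genes. The most abundant genes of the list were BST2, which tethers budding virus, at 186 ± 9.72 and 205 ± 4.43 FPKM (adjusted p = 0.169, limma), and LGALS3BP, a secreted glycoprotein, at 57.7 ± 2.71 and 65.6 ± 1.75 FPKM (adjusted p = 0.108, limma). Of the 19 tested genes, 11 had a difference below 0, and the median was -0.08. The remaining 16 genes of the list did not pass the filter. Among them MX1, an antiviral GTPase, was at 0.0617 and 0.0270 FPKM and RSAD2, also known as viperin, at 0.0252 and 0.0440 FPKM on average in control and PRMT1 KD.

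Over the 5 lists, 45 of 85 genes were tested. Of these, 2 were called lower after PRMT1 KD and 0 were called higher, beside 0.986% and 1.07% of all tested genes. At an unadjusted p under 0.05 the numbers were 11 lower (24.4%, beside 9.47% of all tested genes) and 8 higher (17.8%, beside 10.1%), and limma voom called 8 genes in either direction (17.8%, beside 6.82%). The median difference was 0.00 over the 45 genes and 0.01 over all tested genes. Groups without overlap, PRMT1 KD lower, were found for 14 of the 45 (31.1%, beside 12.3% of all tested genes), and with PRMT1 KD higher for 11 (24.4%, beside 13.6%).

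**Figure D3:**
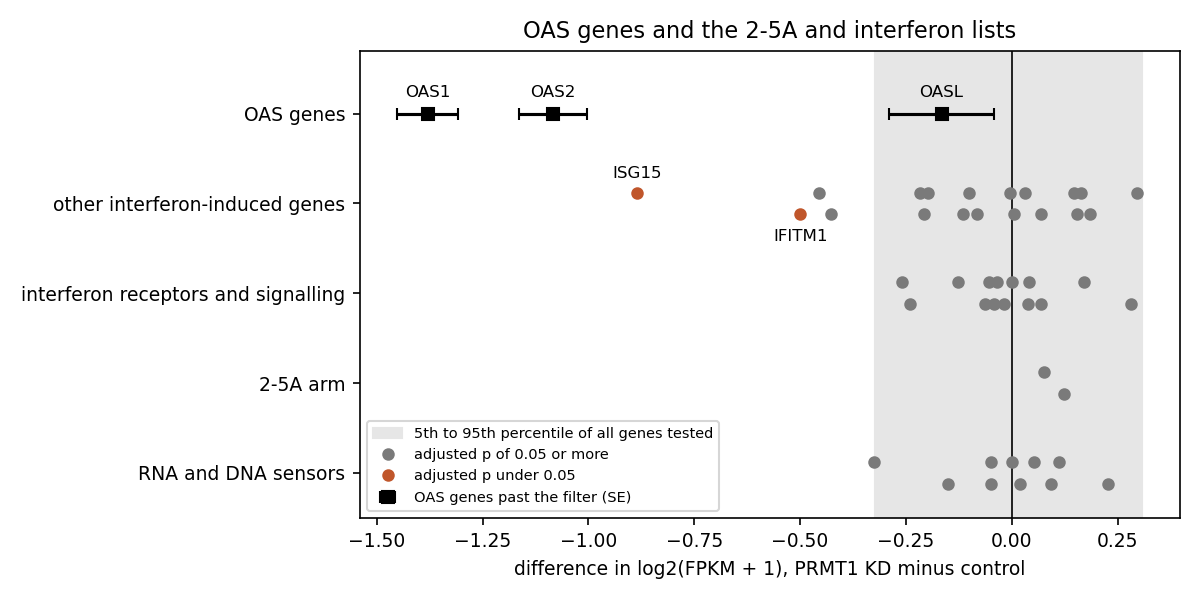
Difference in log2(FPKM + 1), PRMT1 KD minus control, of each tested gene in 4 of the lists (points) and of the 3 OAS genes past the filter (squares with SE). The grey band spans the 5th to 95th percentile of all 13585 tested genes, -0.32 to 0.31. OAS1, OAS2, ISG15 and IFITM1 lie to the left of it, as do ISG20 and IFI27, which did not pass the test, and ZBP1 lies on its edge.

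OAS1, OAS3 and OAS2 lie side by side on chromosome 12 (hg38), all on the plus strand, at 112906777-112933222, 112938352-112973249 and 112978395-113011723. OASL lies apart from them on the minus strand, at 121019111-121039242. Protein-coding genes within 200 kb were compared to see whether the surrounding region moved with them, and 0 of the 7 tested were called, of which 5 are described here. Beside the cluster, DDX54, an RNA helicase, was at 22.5 ± 1.81 and 23.1 ± 2.08 FPKM in control and PRMT1 KD, and RITA1, a regulator of Notch signalling, at 19.0 ± 1.05 and 16.2 ± 1.56 FPKM. Their differences were 0.04 (SE 0.0845, adjusted p = 0.846, limma) and -0.22 (SE 0.0769, adjusted p = 0.186, limma). Near OASL, the differences were 0.01 for SPPL3, -0.22 for P2RX4 and -0.13 for CAMKK2, with adjusted p from 0.123 to 0.966 (limma). RPH3A, DTX1, RASAL1, CFAP73, IQCD and P2RX7 were below the filter. The antisense gene AC004551.1 runs opposite to OAS1, OAS3 and OAS2 and was at 1.37 FPKM in control and 1.45 FPKM after PRMT1 KD on average. Whether the counting used strand is not given in the sources used here, so reads of these genes and of their antisense partner may not be separable. Stretches of 75 bases shared with another gene were absent from OAS1, OAS2 and OASL transcripts and numbered 2 of 8310 in OAS3.

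**Figure D4:**
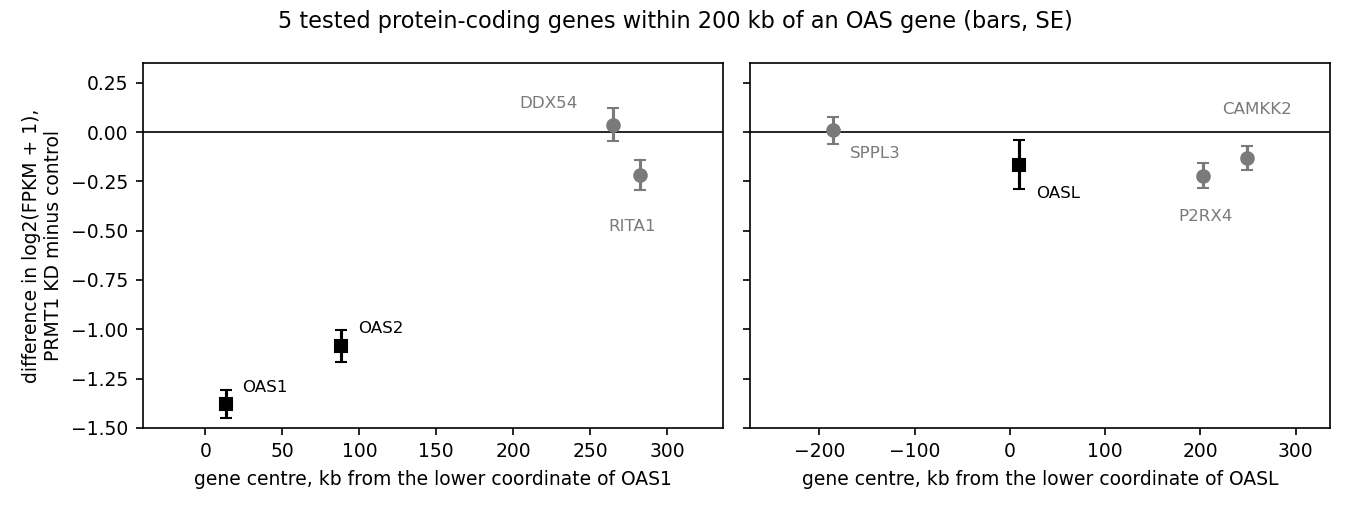
Difference in log2(FPKM + 1), PRMT1 KD minus control, with SE, for OAS1, OAS2 and OASL (black squares) and 5 tested protein-coding genes within 200 kb (grey points), by distance in kb. These neighbours lie between -0.22 and 0.04, well above OAS1 at -1.38 and OAS2 at -1.08.

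Among the 5 protein-coding genes most like OAS1 over the 6 libraries, by Pearson's r of log2(FPKM + 1), were BCAS4 (0.997), ANO10 (0.993), TMC8 (0.993) and PRMT1 itself (0.993). The same measure was 0.986 for OAS2 and 0.549 for OASL. The 6 points share the knockdown and fall into 2 clusters for OAS1, so these values describe likeness only. TMC8, a membrane protein, was at 3.99 ± 0.321 and 1.86 ± 0.132 FPKM in control and PRMT1 KD.

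Of the study's 3 designed PRMT1 siRNAs, the target of si-PRMT1-1 is shown because its seed has sites in 3' untranslated regions of OAS transcripts. The capitals mark the 7 bases that pair with bases 2 to 8 of the guide strand.
si-PRMT1-1: gcaactccatgTTTCATAa
The si-PRMT1-1 site occurred in the 3' untranslated region of all 4 OAS2 transcripts that have one annotated, in 2 of 3 for OAS3, in 1 of 8 for OAS1 and in 0 of 4 for OASL. Such a site was present in 2288 of 10051 tested coding genes (22.76%). The seed sites of si-PRMT1-2 and si-PRMT1-3 were found in 0 of these OAS regions, and in 10.06% and 14.14% of tested coding genes. Outside these regions the si-PRMT1-3 site occurred in 3 of 7 OAS2 and 2 of 7 OAS3 transcripts. No OAS transcript held a whole target, and the longest shared run was 9 bases. Since the siRNA that was sequenced is not named, the part of these sites in the OAS values was not tested.

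The 6 libraries held between 14439217 and 16465026 reads counted on genes, as worked back from FPKM, and no batch is named in the labels. All 9 plasma cell markers were above 1 FPKM in every library, with a sum of 1329 to 1409 FPKM in control and 1314 to 1487 FPKM in PRMT1 KD, so the labelled cell type had its defining markers. Within that list SLAMF7, a surface receptor, fell from 38.0 ± 0.961 to 23.8 ± 1.17 FPKM (difference -0.65, SE 0.0505, adjusted p = 0.00515, limma), and the other 8 were not called. Of 5 T cell markers, CD3E was at 33.4 ± 1.89 and 38.1 ± 1.40 FPKM, and CD3G at 3.08 ± 0.0263 and 3.01 ± 0.315 FPKM. CD3D was at 0.678 ± 0.200 and 0.132 ± 0.171 FPKM. CD2 had at most 1 read in a library, and 1 marker had no reads. The summed T cell list was 35.7 to 39.4 FPKM in control and 39.8 to 42.5 FPKM in PRMT1 KD. The monocyte and macrophage list never exceeded 0.154 FPKM in sum and the erythroid and stromal list 0.177 FPKM. The part of the T cell genes in the OAS differences was not tested.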

How the data were processed

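RNA sequencing of 3 control (si-NC) and 3 PRMT1 KD libraries of MM.1S cells was used. Groups and replicate numbers came from the labels. The deposited values were FPKM of every gene in each library, beside gene lengths, and the submitters' processing notes name featureCounts 1.5.0-p3 and hg38. The aligner and annotation release are not given in the sources used here. Every FPKM value above 0, multiplied by gene length, was a whole multiple of one step per library (tolerance 1e-06), which gave back reads. Library sizes already held a scaling between libraries.

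FPKM was transformed to log2(FPKM + 1), and differences were fitted in limma (version 3.58.1, R 4.3.3; trended empirical Bayes, two-sided p, Benjamini-Hochberg adjustment) over the 13585 genes with a mean of at least 1 FPKM. This scale understates changes of low genes. A gene was called at an adjusted p under 0.05. The OAS genes were given no p, since this contrast chose them. The OAS genes and the lists were chosen with earlier results of these data known. Named genes were the OAS genes, PRMT1, list genes called, the 4 largest differences and 2 highest levels per list, tested neighbours within 200 kb, and the 5 genes most like OAS1. STAT2, AKAP7, MX1, RSAD2, AC004551.1, IFNL1, IFNL2, IFNB1, SLAMF7, CD3E, CD3G, CD3D and CD2 were named after their values were seen. Promoters came from RefSeq (2 of 4 OAS genes matched), siRNA targets from the study's supplement and transcripts from GENCODE. Some genes that the rule names are not reported here. The script was tested on simulated data. Intervals on reads cover counting error only.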

Additional observations from a re-analysis of the deposited data

How the results depend on the processing

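OAS1, OAS2, OAS3 and OASL were below 0 under every alternative computed, and OASL moved by less than its replicate spread. With a pseudocount of 0.1 the differences were -1.70 for OAS1, -1.29 for OAS2 and -0.53 for OAS3. Rescaled to TPM they were -1.60, -1.22 and -0.28, and on reads with limma voom -1.75, -1.31 and -0.89. A mean of at least 5 FPKM left out OAS1, OAS3 and OASL. Leaving out 1 library gave -1.43 to -1.35 for OAS1, -1.14 to -1.03 for OAS2, -0.14 to -0.07 for OAS3 and -0.25 to -0.08 for OASL. The cause of these shifts was not tested. PRMT1 was called throughout (-2.21 to -2.09).

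The number of genes called depended on the fit. Against 279 over all genes and 2 in the lists, the counts were 35 and 0 without a filter, 473 and 4 with a mean of at least 5 FPKM, 43 and 1 without the trend, 927 and 8 with limma voom, and 2655 and 19 at an unadjusted p under 0.05. Leaving out 1 library gave 13 to 94 over all genes and 0 to 1 in the lists, where fewer samples enter the fit. The lowest count, 13, came without the first control. A fit with a replicate block called 204 genes and 2 list genes. Same-numbered libraries deviated together only weakly (r = 0.0200, 0.0631 and 0.101), though each of these lay above every other pair of control and PRMT1 KD. The other pairs ran from -0.0751 to 0.0186. Whether the numbers pair the libraries was not tested.

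Depth limited OAS3 most among the OAS genes, with at most 36 reads per library, and left the interferon genes unmeasured.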
